A study of Mus musculus with 1104 samples.

Results

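The ionotropic and metabotropic receptors for glutamate and GABA were followed in 5 organs of mice on a high-fat diet: the pituitary gland, the olfactory bulb, the hippocampus, the hypothalamus and the neocortex. Members were the genes of the count table whose symbol begins as a glutamate receptor (Gria, Grik, Grid, Grin, Grm) or as a GABA-A (Gabra, Gabrb, Gabrg, Gabrd, Gabre, Gabrq) or GABA-B (Gabbr1, Gabbr2) receptor subunit. This gave 44 of 20646 genes: 4 AMPA, 5 kainate, 2 delta and 7 NMDA receptor subunits, 8 metabotropic glutamate receptors, 15 GABA-A subunits, both GABA-B subunits, and Grid2ip, which encodes delphilin, a scaffold that binds the delta receptor and is not itself a receptor. The symbols chose them, not their expression. The animals were male wild-type C57BL/6 mice that received a diet with 60 kcal% fat from 8 weeks of age. Organs were collected after 1 day, 3 days, 1 week, 10 days, 2, 3, 4, 5, 6, 7, 8, 10 and 12 weeks of the diet, and at 0 days, with 6 mice in each of the 14 groups. The labels describe no mice kept on another diet, so time on the diet, age and day of dissection changed together and cannot be told apart. Each later group was set against the same 6 mice of 0 days, so the 13 comparisons of an organ share those libraries.

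Glutamate and GABA are the main excitatory and inhibitory transmitters of the brain. AMPA, kainate and NMDA receptors are cation channels built from subunits around a shared pore, GABA-A receptors are chloride channels usually built from alpha, beta and gamma or delta subunits, and the metabotropic glutamate and GABA-B receptors act through G proteins. Which subunits a cell makes sets the speed, affinity and drug sensitivity of its synapses, and endocrine cells of the pituitary gland also carry several of these receptors.

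Poly(A) RNA was sequenced strand-specifically and counted per gene. The 419 libraries held 10532464 to 20875631 counted reads, with a median of 13897809. Levels are given as CPM, read counts scaled to a common library total, after TMM scaling, a correction for library composition. All levels over time were scaled within an organ and those compared between organs at 0 days were scaled over the 30 libraries of that day, so a gene's level can differ slightly between both scales. At 0 days the organs held the markers of their labels: Gh, Prl and Pomc led the pituitary gland, Cdhr1 and Eomes, of mitral and tufted cells, had medians of 509 and 138 CPM in the olfactory bulb, Prox1, of dentate granule cells, 107 CPM in the hippocampus, Pmch, a hypothalamic peptide, 156 CPM in the hypothalamus, and Slc17a7, a vesicular glutamate transporter of excitatory neurons, 1409 CPM in the neocortex, where the hippocampus had 1539 CPM. Agrp, a peptide of the hypothalamic arcuate nucleus, was at only 2.92 CPM. The olfactory bulb library of 4 weeks, replicate 6, was left out, and in it Eomes was at 0 CPM. In the pituitary gland, 1 library of 1 week, replicate 2, held 1339 CPM of the myelin gene Mbp, against 45.6 to 53.4 CPM in the other 5 of its group. Replicates 1 and 2 of 0 days and replicate 2 of 1 day had Pomc at 9695, 4362 and 5200 CPM, below the 11853 to 26167 CPM of the other 9 libraries of those days.

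Before the diet the receptors set the organs apart. Of 42 members tested, the pituitary gland had 3 higher and 38 lower than the neocortex, the olfactory bulb 18 higher and 21 lower, the hippocampus 9 higher and 24 lower, and the hypothalamus 16 higher and 17 lower (edgeR quasi-likelihood test, Benjamini-Hochberg adjusted p under 0.05 over all genes). Of all genes tested, 87.7%, 68.7%, 56.3% and 63.1% were called in those 4 comparisons. Gabra6, a GABA-A subunit known from cerebellar granule cells, and Grm6, a receptor known from retinal bipolar cells, had medians of 0 CPM in all 5 organs and were not tested. Per kilobase of exon, the highest level of any member was that of Gria1, the GluA1 AMPA subunit, in the hippocampus. Its 6 libraries held 172 to 201 CPM per kb there, against 65.3 to 72.0 in the neocortex. Gabbr1, the subunit of the GABA-B receptor that binds GABA, led the hypothalamus (median 122 CPM per kb) and the neocortex (105 CPM per kb). In the pituitary gland, the kainate subunits Grik5 and Grik3 led with 22.3 and 18.1 CPM per kb. Of the families, metabotropic glutamate receptors were the scarcest there: their summed medians were 0.738 CPM per kb in the pituitary gland against 75.1 in the neocortex, while the kainate family summed to 46.0 against 83.9.

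**Figure D1:**
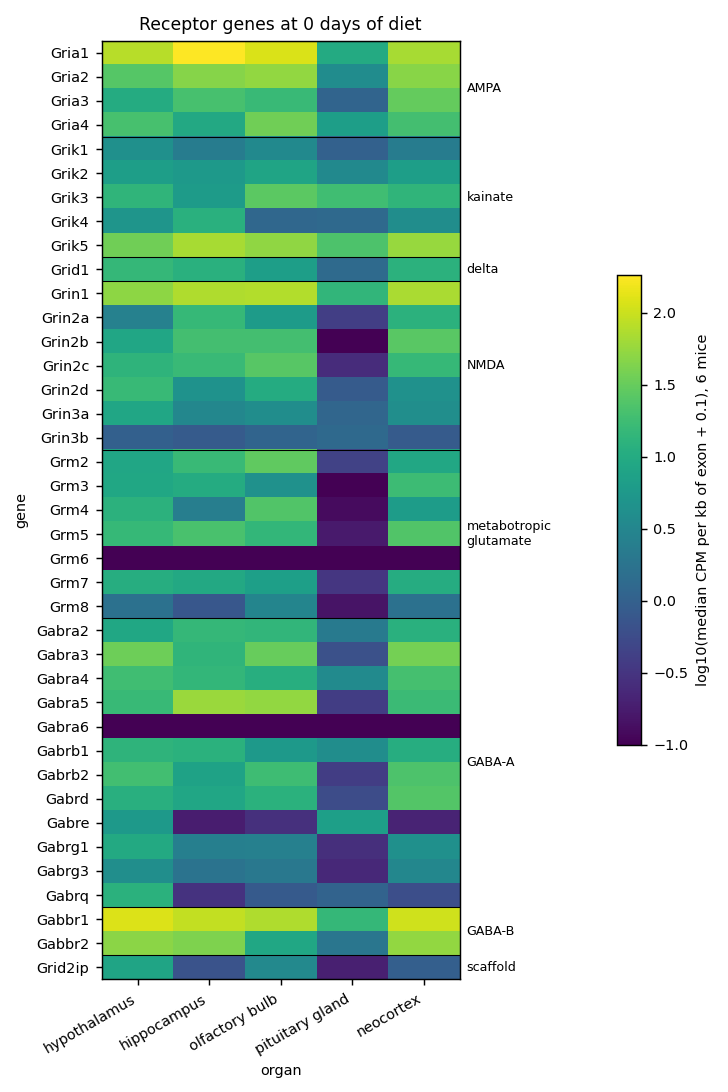
Level of receptor genes at 0 days in the 5 organs, as log10 of the median CPM per kilobase of exon plus 0.1 (colour; n = 6 mice per organ), with genes grouped by family and the neocortex in the rightmost column. Gria1 in the hippocampus is the highest cell (181 CPM per kb), and the pituitary column is darker than the others for most genes, with its lightest cells at Grik5 and Grik3.

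The genes that led relative to the neocortex were in part shared between organs. Gabre led in both the hypothalamus and the pituitary gland. Gabra5 was high in the hippocampus and the olfactory bulb, and Grid2ip in the hypothalamus and the olfactory bulb. Relative to the neocortex the hypothalamus stood out by Gabre and Gabrq, which encode the epsilon and theta subunits of the GABA-A receptor. Gabre had 20.2, 26.7 and 37.2 CPM (lowest, median and highest of 6) in the hypothalamus, against 0.336, 0.536 and 0.994 CPM in the neocortex, a log2 difference of 5.53 ± 0.22 (SE). Gabrq had 53.7, 64.4 and 96.4 CPM in the hypothalamus, against 2.06, 2.72 and 3.67 CPM in the neocortex, a log2 difference of 4.58. No library of either organ fell into the other's range for these genes. Grin2d, an NMDA subunit with slow kinetics, was also higher in the hypothalamus (median 103 against 29.2 CPM; log2 difference 1.83), as was Grid2ip (54.2 against 5.83 CPM; 3.13). Lowest relative to the neocortex was Grin2a, the GluN2A NMDA subunit, with 34.3, 46.1 and 48.2 CPM in the hypothalamus and 206, 223 and 250 CPM in the neocortex (log2 difference −2.35). Grin2b (−1.64), Gria3 (−1.60) and Gabrd (−1.13) were the next lowest.

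The hippocampus was marked by Gabra5, the alpha5 GABA-A subunit, which had 163, 174 and 196 CPM there and 46.1, 49.9 and 53.1 CPM in the neocortex (log2 difference 1.83). Grik4, a high-affinity kainate subunit, followed with medians of 68.5 CPM in the hippocampus and 22.9 CPM in the neocortex (1.58), then Gria1 (1096 and 411 CPM; 1.43) and Grm2 (0.77). Gabrb2, the beta2 GABA-A subunit, was among the lowest, with 40.2, 46.9 and 54.0 CPM in the hippocampus and 129, 141 and 149 CPM in the neocortex (−1.57). Gabrd (−1.56), Gabra3 (−1.47) and Gabrq (−1.33) were lower by similar amounts. In the olfactory bulb, Grid2ip (1.92), the presynaptic group III receptor Grm4 (1.88), Gabra5 (1.70) and the group II receptor Grm2 (1.69) were the highest relative to the neocortex. Grm4 had 125, 139 and 152 CPM in the olfactory bulb, against 35.3, 37.5 and 40.8 CPM in the neocortex. Gabbr2, the GABA-B subunit that couples to the G protein, was the lowest, with 54.2, 58.5 and 75.5 CPM in the olfactory bulb and 316, 357 and 368 CPM in the neocortex (−2.53), followed by Grm3 (−2.02), Grik4 (−1.81) and Gabrd (−1.06).

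The pituitary gland had only 3 members above the neocortex: Gabre (30.8, 32.2 and 43.2 CPM, against 0.336, 0.536 and 0.994 CPM; log2 difference 5.89), Gabrq (0.96) and the glycine-binding NMDA subunit Grin3b (0.73). Grin2b, the GluN2B subunit, had 0 to 0.188 CPM in the pituitary gland against 601 to 695 CPM in the neocortex. Grm3 (0 to 0.128 CPM) and Grm5 (0.334 to 1.03 CPM) were also at or near 0. Grik3 was the member not called between these organs. Of the 43 receptors and Grid2ip, 15 were counted as highest by median in the hypothalamus and 11 in the neocortex. The olfactory bulb had 10, the hippocampus 6 and the pituitary gland 2. The 15 include Gabra6 and Grm6, whose medians were 0 CPM in every organ and which were counted there only as ties.

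Most receptors of the pituitary gland were called at 12 weeks, in an organ where many other genes were called as well. After 12 weeks 17 of 38 members tested were higher and 6 lower than at 0 days, a share of 60.5%, with a median log2 fold change of 0.26 over the members. Of all 15086 genes tested, 45.6% were called (23.2% higher and 22.4% lower) and their median was 0.00. Over the 13 comparisons 148 calls were higher and 69 lower out of 494, against 18.8% in each direction for all genes, so 43.9% of the member tests were called against 37.6% of all tests. In the test over all time points 32 of 38 members changed, against 69.2% of all genes, compared with 31 of 42 in the olfactory bulb (48.1% of all genes) and 21 of 42 each in the hippocampus (39.5%), the hypothalamus (31.1%) and the neocortex (34.8%). All 4 AMPA subunits were higher at 12 weeks, as were 7 of 14 GABA-A subunits, with 2 lower.

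Among the channel subunits that rose, Gabrb2 had the largest change. It had 6.90, 10.7 and 15.1 CPM at 12 weeks, against 1.04, 1.91 and 3.19 CPM at 0 days. Every mouse of 12 weeks lay above every mouse of 0 days, and the log2 fold change was 2.50 ± 0.20 (adjusted p = 9.57e-18). The beta1 subunit Gabrb1 had 100.2, 113 and 118 CPM at 12 weeks and 52.6, 55.1 and 68.1 CPM at 0 days, again without overlap (0.96 ± 0.09, adjusted p = 6.58e-15). Beta subunits carry part of the GABA binding site and are found in nearly all GABA-A receptors. Grin3a, an NMDA subunit that lowers calcium entry, had 25.8, 27.2 and 31.0 CPM at 12 weeks and 11.2, 13.97 and 15.2 CPM at 0 days (1.05 ± 0.12, adjusted p = 2.04e-12). All 6 mice of 12 weeks were above those of 0 days for Grin3a as well.

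The AMPA subunits rose by smaller amounts: Gria2, which makes the channel impermeable to calcium, by 0.53 ± 0.09, Gria4 by 0.60 ± 0.10, Gria3 by 0.75 ± 0.17 (0.41 ± 0.14 without the libraries with low Pomc) and Gria1 by 0.45 ± 0.13 on the log2 scale. Gria1 had 81.9, 83.5 and 85.1 CPM at 12 weeks and 57.7, 60.9 and 65.2 CPM at 0 days. The other calls upward included the GABA-A subunits Gabrg1 (1.40) and Gabra2 (0.37), the NMDA subunit Grin2a (0.74), the kainate subunits Grik3 (0.35) and Grik2 (0.25, but −0.18 and a call downward once GC content and length entered the fit as offsets) and the metabotropic receptor Grm7 (0.90). The Grik3 call and the size of the Gria3 change depended on the libraries with low Pomc. Grik3 was at 75.1, 87.6 and 98.0 CPM in them and at 159 to 193 CPM in the other 9 of 0 and 1 days, and without them its log2 fold change was 0.07 ± 0.11 (adjusted p = 0.659). Gria3 was at 5.28, 2.77 and 5.11 CPM in them and at 8.72 to 14.2 CPM in the other 9. The other 22 calls kept their direction and passed the test without them, giving 16 members higher and 6 lower, against 40.5% of all genes called.

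Fewer subunits fell, among them Grik5, Gabbr1 and Grin1, which were among the 5 highest per kb in the gland at 0 days. Gabbr1 had 47.3, 57.1 and 64.2 CPM at 12 weeks, against 108, 117 and 121 CPM at 0 days (−1.02 ± 0.12, adjusted p = 5.23e-11). Its partner Gabbr2 was not called at 12 weeks (0.26) but was called upward at 4 earlier time points. With offsets for GC content and length Gabbr2 was called upward at 12 weeks (0.49 ± 0.19). Grik5, the kainate subunit with the highest level per kb at 0 days, had 68.9, 72.0 and 76.5 CPM at 12 weeks and 109.7, 120 and 127 CPM at 0 days (−0.74 ± 0.08, adjusted p = 1.55e-12). No mouse of 12 weeks reached the 0-day range for Gabbr1 or Grik5. Gabre had 10.5, 13.9 and 18.4 CPM at 12 weeks and 31.9, 33.3 and 44.9 CPM at 0 days (−1.32 ± 0.20, adjusted p = 4.81e-08). Gabrq had 0.795, 1.16 and 1.58 CPM at 12 weeks and 4.35, 5.47 and 7.98 CPM at 0 days (−2.30 ± 0.25, adjusted p = 2.35e-12). Both exceeded the neocortex at 0 days, as did Grin3b, which was not called at 12 weeks (−0.13). The NMDA subunits Grin2d (−0.86 ± 0.22) and Grin1 (−0.37 ± 0.10), the obligatory subunit of NMDA receptors, fell as well.

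**Figure D2:**
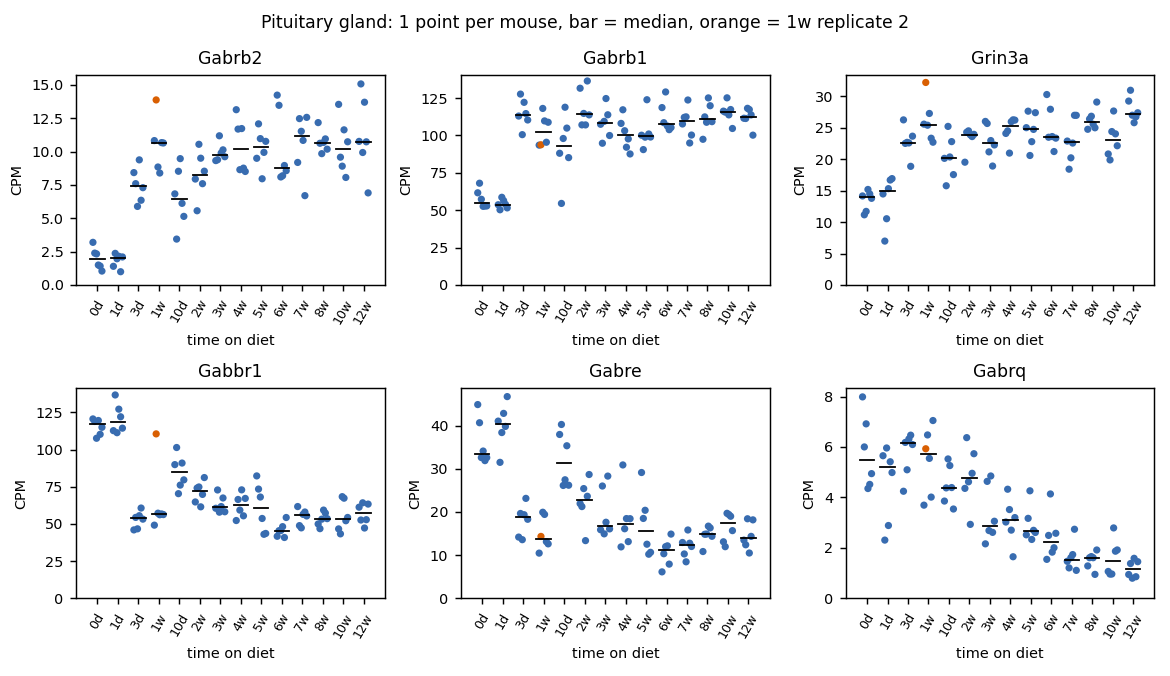
CPM of 6 receptor genes in the pituitary gland at the 14 time points, 1 point per mouse (n = 6 each) and a bar at the median, with the library of 1 week that held myelin genes in orange. Gabrb2, Gabrb1, Grin3a, Gabbr1 and Gabre step between 1 and 3 days, whereas Gabrq declines from 3 weeks to a median of 1.16 CPM at 12 weeks.

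Most of these changes were already present at 3 days and were not at 1 day. After 1 day only Grik2 was called (−0.32), against 0.146% of all genes. Gabrb2 had medians of 1.91, 2.03 and 7.44 CPM at 0, 1 and 3 days, Gabrb1 of 55.1, 53.8 and 114 CPM, and Gabbr1 of 117, 118 and 53.8 CPM. In a direct comparison of 3 days with 1 day, added after these profiles had been seen, 11 members were higher and 6 lower, against 38.0% of all genes called. Gabrb2 (2.01), Gabrb1 (1.08) and Grin3a (0.76) were among the higher, and Gabbr1 (−1.19), Gabre (−1.15), Grin2d (−0.99), Grik5 (−0.81), Grin3b (−0.63) and Grid2ip (−1.58) were the lower. From 3 days to 12 weeks only 8 members changed, against 11.6% of all genes: Gabrb2 (0.58), Gria4 (0.54), Gabra2 (0.48), Gria1 (0.44), Grik2 (0.30) and Gria2 (0.28) rose, and Gabra4 (−0.39) and Gabrq (−2.29) fell. Gabrb1, Grik5 and Gabbr1 then differed by −0.034, 0.090 and 0.11, none of them called. After 10 days several genes lay between the levels before and after the step, with medians of 84.8 CPM for Gabbr1, 31.4 CPM for Gabre and 93.0 CPM for Gabrb1.

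Gabrq followed another course. Its log2 fold change was −0.01 at 3 days and −0.26 at 2 weeks, neither called, and from 3 weeks it fell at every time point, by 0.79, 0.92, 0.98, 1.24, 1.83, 1.94, 1.85 and 2.30. Gria4 rose from 2 weeks on, at each time point but 6 weeks, and reached 0.60 at 12 weeks. A trend with log2 of the days on the diet was called for 13 members upward and 7 downward, against 39.1% of all genes, but for 6 members once 0 and 1 days were left out, among them Gria1, Gria4 and Grin3b upward, and Gabrq and Gabra4 downward (6.48% of all genes). The 1-week comparison included the library with myelin genes, in which Grm5 was at 22.7 CPM against 0.750 to 1.25 CPM in the other 5, and Gabra3 at 22.8, Grin2b at 12.7 and Gabra5 at 9.14 CPM. With that library 16 members were higher and 4 lower at 1 week (41.1% of all genes called), and without it 11 were higher and 6 lower (35.9%).

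Other cells moved with the comparison. In these bulk samples fewer cells of a type and less RNA per cell cannot be told apart. The summed CPM of 8 anterior pituitary hormone and lineage genes was 114718 to 135954 at 12 weeks, against 186764 to 223274 at 0 days, with Lhb under 0.1 CPM at 0 days. It was 194950 to 234427 at 3 days and 190185 to 234719 at 1 day, ranges that overlapped. The 8 neuron markers summed to 1271 to 1381 CPM at 12 weeks, against 1077 to 1259 at 0 days. At 3 days they summed to 1264 to 1338 CPM, against 1029 to 1201 at 1 day. Of these 8 markers, 1 was called higher and 1 lower at 12 weeks. Endothelial markers, with 3 of 4 higher, summed to 113 to 119 CPM at 12 weeks and 75.6 to 104 CPM at 0 days, and meningeal and fibroblast markers to 346 to 388 CPM at 12 weeks and 417 to 522 CPM at 0 days. Sums of markers known from other cells were also higher at 12 weeks than at 0 days without overlap. They covered oligodendrocyte precursors (43.2 to 50.4 against 30.3 to 38.9 CPM) and dentate granule cells (245 to 289 against 161 to 194 CPM). Striatal neurons (296 to 351 against 169 to 260.1 CPM) and thalamic neurons (113 to 127 against 87.2 to 92.8 CPM) were covered as well. Of the 4 thalamic markers, however, 1 was called higher and 1 lower, with a median log2 fold change of −0.28. The 4 posterior pituitary genes summed to 80.2 to 114 CPM at 12 weeks and 2.43 to 85.8 CPM at 0 days. Their part in the receptor changes was not tested. The labels give no sequencing or dissection batch, so a batch between 1 and 3 days was not tested either.

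GABA-A genes lie in clusters (GRCm38, GENCODE M21), and in each of 2 clusters some genes were called in the pituitary gland and another was not. On chromosome 5, at 70751047 to 72149037, Gabrg1 (1.40), Gabrb1 (0.96) and Gabra2 (0.37) rose at 12 weeks and Gabra4, at −0.10, was not called. On the X chromosome, at 72255999 to 72842602, Gabre (−1.32) and Gabrq (−2.30) fell and Gabra3, at 0.23, was not called. Exons of Gabra4 and Gabrb1 overlap on opposite strands in this annotation, as do those of Grin3b and Tmem259. Since the strand setting of the counting was not given in the sources used here, reads in those overlaps could have been counted for either gene.

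The promoters of 4 genes with different courses in the gland are given here, chosen for those courses: a pair that stepped up by 3 days (Gabrb2 and Gabrb1), a subunit that stepped down (Gabbr1) and the subunit that declined late (Gabrq). Each runs from 250 bases before to 50 bases after a RefSeq transcription start (GRCm38.p6, plus strand, 5′ to 3′), and capitals mark GGGCGG or its reverse complement CCGCCC, the GC box known to bind Sp factors. Gabrb2 lies at chr11:42420190-42420489, Gabrb1 at chr5:71657671-71657970, Gabbr1 at chr17:37045716-37046015 and Gabrq at chrX:72824928-72825227.
Gabrb2: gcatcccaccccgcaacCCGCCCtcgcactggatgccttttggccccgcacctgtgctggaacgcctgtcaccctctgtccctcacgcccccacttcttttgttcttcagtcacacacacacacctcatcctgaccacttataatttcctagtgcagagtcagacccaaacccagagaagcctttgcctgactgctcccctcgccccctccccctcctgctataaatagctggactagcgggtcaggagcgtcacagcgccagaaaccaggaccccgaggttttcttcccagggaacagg
Gabrb1: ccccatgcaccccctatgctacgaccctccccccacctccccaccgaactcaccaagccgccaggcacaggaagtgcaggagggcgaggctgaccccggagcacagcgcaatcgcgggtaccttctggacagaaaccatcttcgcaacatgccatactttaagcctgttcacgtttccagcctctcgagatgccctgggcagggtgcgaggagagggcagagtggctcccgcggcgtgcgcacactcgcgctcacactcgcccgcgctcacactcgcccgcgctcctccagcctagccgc
Gabbr1: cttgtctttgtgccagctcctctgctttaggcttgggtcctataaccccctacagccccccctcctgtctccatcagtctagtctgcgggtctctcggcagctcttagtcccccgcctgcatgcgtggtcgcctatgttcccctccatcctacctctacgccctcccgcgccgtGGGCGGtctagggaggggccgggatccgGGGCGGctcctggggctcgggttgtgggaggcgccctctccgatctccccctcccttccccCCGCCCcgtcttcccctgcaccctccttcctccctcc
Gabrq: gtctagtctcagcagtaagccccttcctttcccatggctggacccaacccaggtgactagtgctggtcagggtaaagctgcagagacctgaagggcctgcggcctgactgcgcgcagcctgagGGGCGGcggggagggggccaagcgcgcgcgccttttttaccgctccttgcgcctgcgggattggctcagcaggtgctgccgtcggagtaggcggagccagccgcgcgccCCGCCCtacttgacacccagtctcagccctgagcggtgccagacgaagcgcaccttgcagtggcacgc
They hold 1, 0, 3 and 2 GC boxes and are 59%, 66%, 67.3% and 67% G or C. RefSeq promoters were matched for 29 members, with 37 starts in all. A GC box on either strand was found in 20 of these 37 (54.1%), against 35.7% of the 32851 promoters in the table, and their median GC content was 61% against 52.7%. TATNCAT, the core of the site of the pituitary factor Pit-1, was found on either strand in 3 of 37 (8.11%, at Grm6 and Grm7) and in 8.84% of all promoters. None of the 4 shown held it. A match of letters is a description and not evidence of binding.

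In the olfactory bulb the members fell more often than they rose. At 12 weeks 15 of 42 were lower and 7 higher, with a median log2 fold change of −0.09, against 14.9% lower and 13.9% higher of all 14981 genes (28.8% called) and a median of −0.01. With offsets for GC content and length 11 were lower and 8 higher. With the left-out library of 4 weeks kept in the fit, 9 members were lower and 3 higher, against 20.8% of all genes. Over the 13 comparisons 149 of 546 tests called a member lower and 49 higher, against 10.4% and 9.50% of all genes. Gria2 showed the clearest change. It had 682, 697 and 750.3 CPM at 12 weeks, against 815, 853 and 884 CPM at 0 days, with no overlap (−0.27 ± 0.03, adjusted p = 1.20e-11). Gabrb2 had 81.9, 87.7 and 100.6 CPM at 12 weeks and 108, 114 and 129 CPM at 0 days (−0.35 ± 0.06, adjusted p = 1.01e-06). This beta subunit thus fell in the bulb and rose in the pituitary gland. Gabrg3, the gamma3 subunit, had 14.1, 16.8 and 18.2 CPM at 12 weeks and 20.3, 23.5 and 25.6 CPM at 0 days (−0.50 ± 0.08, adjusted p = 1.86e-06). Grm5, a group I receptor that raises calcium through phospholipase C, had 119, 122 and 131 CPM at 12 weeks and 134, 149 and 162 CPM at 0 days (−0.27 ± 0.05, adjusted p = 2.88e-06). For each of these 4 genes all 6 mice of 12 weeks were below all 6 of 0 days. Grin2b had 381, 393 and 451 CPM at 12 weeks and 422, 488 and 524 CPM at 0 days, where 1 mouse of 12 weeks entered the 0-day range (−0.26 ± 0.04, adjusted p = 1.21e-07).

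A smaller group rose in the bulb. Grm4 had 142, 182 and 199 CPM at 12 weeks and 129, 144 and 156 CPM at 0 days, with 5 of 6 mice above all of 0 days (0.31 ± 0.06, adjusted p = 1.24e-05). Grin3b had 4.35, 6.28 and 7.14 CPM at 12 weeks, against 2.99, 3.47 and 5.14 CPM at 0 days (0.75 ± 0.15, adjusted p = 4.79e-05). Grm2 (0.22 ± 0.05), Grin2d (0.22 ± 0.07), Grik3 (0.13 ± 0.04), Grin2c (0.13 ± 0.05) and Gabbr1 (0.06 ± 0.02) also rose. Grm2 and Grm4 were the metabotropic receptors that already exceeded the neocortex here at 0 days. The other calls downward included Grik1 (−0.30), Grik2 (−0.18), Grik4 (−0.39), Gria4 (−0.13), Gabra5 (−0.13), Grin3a (−0.24) and Grm7 (−0.19).

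**Figure D3:**
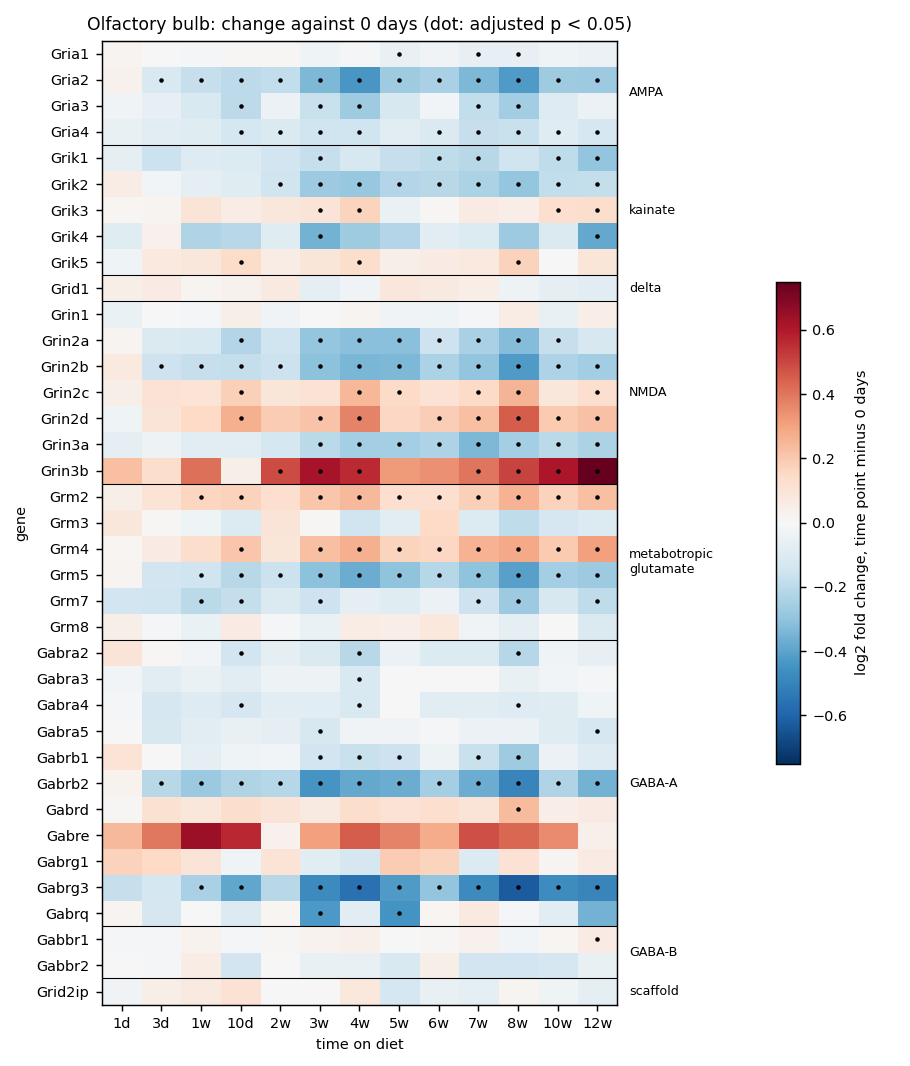
Log2 fold change of receptor genes in the olfactory bulb at the 13 time points against 0 days (colour), with a dot where the adjusted p was under 0.05. Gria2, Grin2b and Gabrb2 are lower at 12 of 13 time points, and Grm2 and Grm4 are higher at 10 and 9.

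These changes arose early and then held. None was called at 1 day. Gria2, Grin2b and Gabrb2 fell at all 12 later time points, from −0.11, −0.16 and −0.21 at 3 days, and their lowest values were at 4 weeks for Gria2 (−0.44) and at 8 weeks for Grin2b (−0.42) and Gabrb2 (−0.50). Grm5 fell at 11 time points, Gabrg3 at 10, and Grik2 and Gria4 at 9. Upward calls came at 10 time points for Grm2, 9 for Grm4, 8 for Grin2d and 7 for Grin3b. The trend with log2 days was called downward for 16 members and upward for 5, against 21.2% and 21.3% of all genes. Newborn-neuron markers (Dcx and 4 others) summed to 819 to 848 CPM at 12 weeks and 917 to 1005 CPM at 0 days, with 3 of 5 lower and 1 higher. Striatal markers, with 2 of 6 higher, summed to 302 to 331 CPM at 12 weeks and 239 to 267 CPM at 0 days, thalamic markers, with 2 of 4 lower, to 77.5 to 88.8 CPM at 12 weeks and 91.8 to 101 CPM at 0 days, and hypothalamic markers to 156 to 170.1 CPM at 12 weeks and 125 to 151 CPM at 0 days, each without overlap. Oligodendrocyte markers, with 3 of 8 lower, summed to 2695 to 2850 CPM at 12 weeks and 2717 to 3445 CPM at 0 days. The 8 neuron markers summed to 6715 to 7227 CPM at 12 weeks and 6852 to 7107 CPM at 0 days. Their part in the receptor changes was not tested.

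At 12 weeks most calls were upward in the hippocampus and downward in the neocortex. In the hippocampus 10 of 42 members were higher and 1 lower, with a median of 0.05, against 13.2% and 12.4% of all genes (25.6% called) and a median of −0.02. With offsets for GC content and length 7 were higher and 2 lower. In the neocortex 3 were higher and 11 lower, with a median of −0.04, against 13.3% and 11.8% of all genes (25.0% called) and a median of −0.01. With the offsets 3 were higher and 4 lower, so the larger number of decreases was nearly lost. In the hippocampus Grin2a had 301, 328 and 349 CPM at 12 weeks and 258, 263 and 303 CPM at 0 days, and 5 of 6 mice lay above all of 0 days (0.26 ± 0.05, adjusted p = 6.22e-05). Gabrb2 had 58.8, 60.3 and 66.6 CPM at 12 weeks and 39.2, 45.7 and 52.6 CPM at 0 days, without overlap (0.42 ± 0.10, adjusted p = 0.000406). Grm5 had 227, 242 and 253 CPM at 12 weeks and 189, 209 and 233 CPM at 0 days (0.21 ± 0.05, adjusted p = 0.000582). Grik2 (0.20 ± 0.05), Gabrb1 (0.17 ± 0.05), Gabbr2 (0.16 ± 0.04), Gabrg1 (0.24 ± 0.07) and Gria2 (0.15 ± 0.05) were among the other calls upward. Grik1, the kainate subunit GluK1, was the call downward, with 10.0, 11.6 and 13.97 CPM at 12 weeks and 12.7, 14.5 and 18.1 CPM at 0 days (−0.34 ± 0.10, adjusted p = 0.00729).

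The hippocampal calls came late. Over the 13 comparisons 16 calls were higher and 5 lower of 546, against 2.98% and 2.63% of all genes, and 14 of the 16 came at 10 or 12 weeks. Gabrb2 was lower at 4 weeks (−0.30), had a median of 41.5 CPM at 8 weeks and stood at 66.1 CPM at 10 weeks. In a comparison of 10 with 8 weeks, added after these profiles had been seen, Gabrb2 differed by 0.45 ± 0.10 and Grm5 by 0.22 ± 0.05, the only members called, against 4.09% of all genes. The trend with log2 days was called upward for 3 members, among them Gabrg1 and Grin2a, and downward for Grin2d, against 13.0% of all genes.

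**Figure D4:**
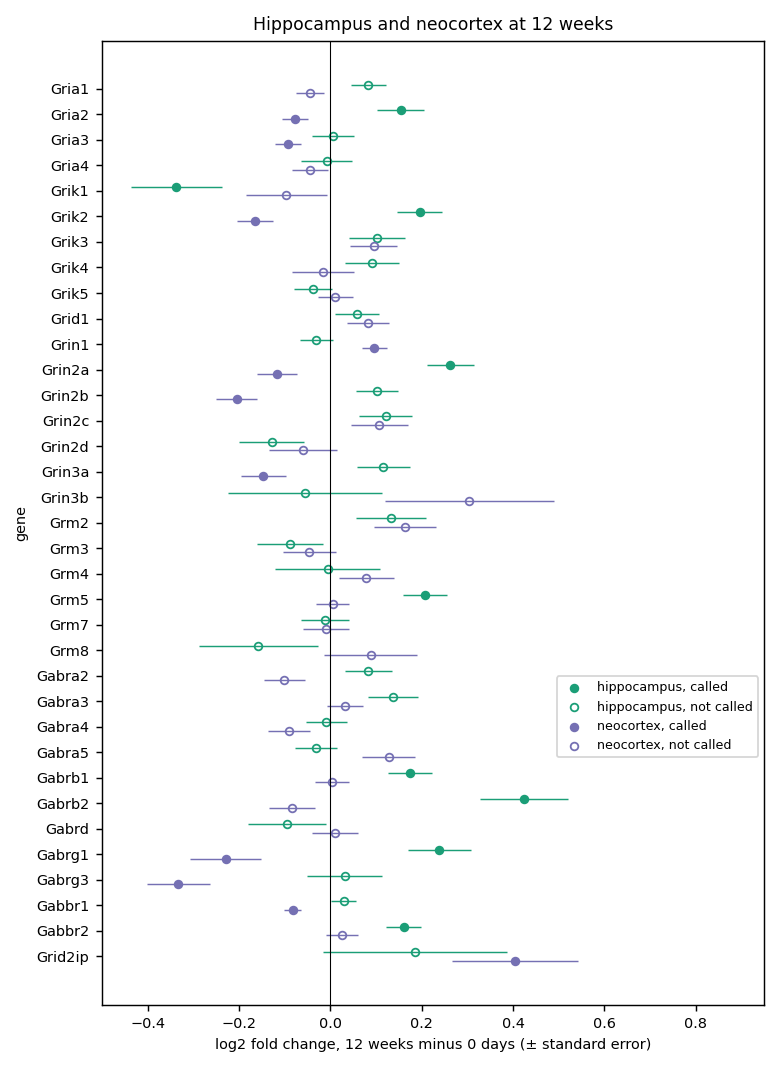
Log2 fold change at 12 weeks against 0 days, with its standard error, of receptor genes in the hippocampus and the neocortex, filled where the adjusted p was under 0.05. Gabre and Gabrq are not drawn because of their low level there, and Gabrb2, Grin2a and Grik2 lie above 0 in the hippocampus and below 0 in the neocortex.

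In the neocortex the decreases were small beside those of the pituitary gland. Gabrg3 had 26.2, 27.6 and 32.9 CPM at 12 weeks and 33.7, 35.6 and 39.0 CPM at 0 days (−0.33 ± 0.07, adjusted p = 8.33e-05). Grin2b had 501, 520.0 and 573 CPM at 12 weeks and 565, 614 and 652 CPM at 0 days (−0.20 ± 0.04, adjusted p = 0.000195). Gabbr1 had 722, 729 and 739 CPM at 12 weeks, against 754, 770.1 and 797 CPM at 0 days, a fall of 0.08 ± 0.02 on the log2 scale that left no overlap (adjusted p = 0.000349). The groups did not overlap for Gabrg3 either, and for Grin2b 5 of 6 mice of 12 weeks were below all of 0 days. Grik2, the kainate subunit GluK2, had 69.9, 73.3 and 75.8 CPM at 12 weeks and 78.0, 81.1 and 86.6 CPM at 0 days (−0.17 ± 0.04, adjusted p = 0.000934), a call lost with the offsets (−0.07, adjusted p = 0.178). It was lower at 10 of 13 time points, the most of any member in this organ, and Gabbr1 at 8. Gabrg1 (−0.23), Gria2 (−0.08), Gria3 (−0.09), Grin2a (−0.12) and Grin3a (−0.15) also fell.

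Grin1, the obligatory NMDA subunit, rose in the neocortex, with 652, 684 and 723 CPM at 12 weeks and 599, 643 and 677 CPM at 0 days (0.10 ± 0.03, adjusted p = 0.00582), and was higher at 5 time points. With the offsets its value at 12 weeks was 0.01 (adjusted p = 0.81). Grid2ip (0.40 ± 0.14) was also called upward at 12 weeks. Grm2, an autoreceptor that lowers glutamate release, was highest after 1 day (0.34) and was also called at 3 days (0.25), 1 week (0.22) and 6 weeks (0.19). Over the 13 comparisons 49 calls were lower and 24 higher of 546, against 6.03% and 7.15% of all genes. The trend was called for 3 members upward, among them Grik3 and Grid2ip, and 4 downward, among them Gabrq, Grik5 and Grin2d, against 28.7% of all genes.

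Oligodendrocyte markers fell in both organs. Their 8 genes were all lower at 12 weeks in the hippocampus, where they summed to 3987 to 4394 CPM at 12 weeks and 6250 to 8054 CPM at 0 days, and in the neocortex, where they summed to 4737 to 5172 CPM at 12 weeks and 5894 to 6876 CPM at 0 days. Of 7 immediate early genes, which follow neuronal activity before death, 5 were higher in the neocortex, summing to 1206 to 1903 CPM at 12 weeks and 530 to 1212 CPM at 0 days. The 4 thalamic markers of the neocortex summed to 95.8 to 110.8 CPM at 12 weeks and 109.5 to 149 CPM at 0 days, with 3 lower. In the neocortex the markers of oligodendrocyte precursors (145 to 176 against 180.1 to 196 CPM), microglia (185 to 221 against 226 to 252 CPM) and newborn neurons (102 to 114 against 115 to 138 CPM) were lower at 12 weeks than at 0 days without overlap. Neuron markers summed to 6480 to 7309 CPM at 12 weeks and 6341 to 7215 CPM at 0 days in the hippocampus, and to 7524 to 7925 CPM at 12 weeks and 7382 to 7836 CPM at 0 days in the neocortex. Their part in the receptor changes was not tested.

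In the hypothalamus few members were called at single time points, although 21 of 42 changed in the test over all time points. At 12 weeks 2 of 42 were called, against 6.80% of all genes. Gabrg1, the gamma1 subunit, had 82.8, 85.8 and 100.8 CPM at 12 weeks and 70.5, 75.3 and 88.0 CPM at 0 days (0.20 ± 0.06, adjusted p = 0.0126). The groups overlapped for Gabrg1, and its call did not hold without the 12-week replicate 2. Over the 13 comparisons 8 calls were higher and 16 lower of 546, against 2.29% and 2.43% of all genes. The NMDA subunit Grin2d, which marked this organ at 0 days, made up 7 of the 16: it fell by 0.21 at 1 day and by 0.22 to 0.31 from 4 to 10 weeks, and was not called at 12 weeks (−0.14). The trend was called upward for 5 members, among them Gabrg1, Gabra2, Gabra3 and Grm8, and downward for Grin2d, Gabrb2 and Grid2ip, against 14.6% of all genes. The slope per doubling of days was 0.04 for Gabrg1, 0.03 for Gabra2 and Gabra3 and −0.03 for Grin2d. The 8 oligodendrocyte markers fell here too, with 7286 to 8116 CPM in all at 12 weeks and 9412 to 10942 CPM at 0 days, while neuron markers summed to 6092 to 6385 CPM at 12 weeks and 6215 to 6402 CPM at 0 days. Their part was not tested.

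Whether the 12-week change differed between organs was tested as an interaction against the neocortex. The pituitary gland had 17 members that changed more upward than in the neocortex and 5 more downward (37.9% of all genes called), led by Gabrb2, with a difference in log2 fold change of 2.58 ± 0.19 (adjusted p = 1.18e-24), Grin3a (1.19 ± 0.12) and Gabrb1 (0.94 ± 0.10). In the hippocampus 15 members differed, all upward, against 8.24% of all genes upward and 5.78% downward. Grik2 differed by 0.38 ± 0.06 (adjusted p = 4.33e-06), Grin2a by 0.39 ± 0.07 (adjusted p = 1.51e-05) and Gabrb2 by 0.52 ± 0.11 (adjusted p = 0.000171). In the olfactory bulb Gabbr1 differed upward (0.15 ± 0.03) and 7 members downward, against 8.61% of all genes, among them Gria2 (−0.18 ± 0.04). In the hypothalamus 4 GABA-A subunits differed upward, among them Gabrg1 (0.42 ± 0.10), Gabrg3 (0.27 ± 0.09) and Gabra2 (0.21 ± 0.07), and Grin1 downward (−0.18 ± 0.04), against 9.81% of all genes. All 4 interactions share the neocortex libraries and were not run with offsets for GC content.

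Across all 65 comparisons of a time point with 0 days in the 5 organs, Gabrb2 was called most often. It was called 30 times, 14 higher (12 of them in the pituitary gland) and 16 lower (12 in the olfactory bulb). Of the tests of all genes, 37.6% were called in the pituitary gland and 19.9% in the olfactory bulb. The shares were 5.61% in the hippocampus, 4.72% in the hypothalamus and 13.2% in the neocortex. Comparisons of an organ share its 0-day libraries, so repeated calls are not independent. Grin2d was called 27 times (8 higher and 19 lower), Gria2 26 (13 and 13), Grik2 24 (4 and 20), Grin3a 23 (12 and 11), Gabbr1 21 (1 and 20) and Grin2a 21 (12 and 9). Grm3 was tested in the 4 brain organs and was never called.

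Other genes of these synapses were followed at 12 weeks in lists, whose counts stand beside 45.6% of all genes called in the pituitary gland, 28.8% in the olfactory bulb, 25.6% in the hippocampus, 6.80% in the hypothalamus and 25.0% in the neocortex. Of 21 postsynaptic scaffolds of glutamate synapses, 5 were higher and 10 lower in the pituitary gland (median −0.17), 11 and 3 in the olfactory bulb (0.08), 13 and 0 in the hippocampus (0.15), none in the hypothalamus, and 9 and 4 in the neocortex (0.04). Shank1, a master scaffold of the postsynaptic density, fell by 1.30 ± 0.14 in the pituitary gland and rose by 0.33 ± 0.04 in the olfactory bulb and 0.49 ± 0.05 in the hippocampus. Dlg2, a scaffold of NMDA receptors, rose by 0.56 ± 0.07 in the pituitary gland. In the hippocampus Shank2 rose by 0.40 ± 0.04, and in the neocortex Homer1, which links metabotropic receptors to calcium stores, rose by 0.44 ± 0.07. Of 17 AMPA receptor auxiliary subunits, 2 of 15 tested were higher and 3 lower in the pituitary gland, 7 and 3 in the olfactory bulb, 5 and 4 in the hippocampus, 1 (Sacm1l, 0.17) and 0 in the hypothalamus, and 6 and 0 in the neocortex. Shisa9, which modulates AMPA receptors, rose by 0.85 ± 0.11 in the pituitary gland. Cpt1c, a partner of AMPA receptors, fell by 1.05 ± 0.09 in the pituitary gland and rose by 0.20 ± 0.03 in the neocortex. Both kainate auxiliary subunits, Neto1 and Neto2, rose in the hippocampus (0.19 and 0.20) and fell in the olfactory bulb (−0.23 and −0.20), and Neto1 fell in the neocortex (−0.10).

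On the inhibitory side, of 12 GABA-A scaffolds and partners Gphn was higher (0.13) and Nlgn2 and Nlgn3 lower in the pituitary gland, 6 were higher and 2 lower in the olfactory bulb, 4 and 2 in the hippocampus and in the neocortex, and none was called in the hypothalamus. Nlgn2, an adhesion protein of inhibitory synapses, fell by 0.38 ± 0.09 in the pituitary gland and Nlgn3 by 0.45 ± 0.12. Of 4 GABA-B auxiliary subunits 3 rose in the pituitary gland while Gabbr1 fell, Kctd16 (1.54 ± 0.35), Kctd12b (0.50 ± 0.14) and Kctd8 (0.49 ± 0.19), and Kctd12 (−0.16) and Kctd12b (−0.33) fell in the olfactory bulb. Kctd12 rose by 0.31 ± 0.05 in the hippocampus. Of 7 genes of GABA synthesis, loading and uptake, Gad2 rose in the pituitary gland (0.61), Slc32a1 (0.22) and Gad1 (0.09) in the olfactory bulb and Gad1 in the hypothalamus (0.17), while in the neocortex Gad1 rose (0.13) and 3 fell, among them Gad2 (−0.20) and Abat (−0.12). Of the genes of glutamate loading, uptake and recycling, 6 of 11 rose in the hippocampus and none fell, 3 rose and 1 fell in the pituitary gland, 1 rose and 2 fell in the olfactory bulb and in the neocortex, and none was called in the hypothalamus. The astrocyte transporter Slc1a2 rose by 0.20 in the hippocampus and fell by 0.30 in the olfactory bulb and 0.24 in the neocortex. The chloride exporter Slc12a5, which sets the direction of GABA-A currents, rose in the olfactory bulb (0.18), the hippocampus (0.17) and the neocortex (0.19) and fell in the pituitary gland (−0.69), where the importer Slc12a2 rose (0.59). Of 7 cerebellins and neurexins, which bind delta receptors from the presynaptic side, 2 rose and 3 fell in the pituitary gland, 1 and 4 in the olfactory bulb, 1 and 0 in the hippocampus and 2 and 1 in the neocortex. Of the glycine receptors and rho-type or pi GABA receptors that the rule left out, Glra1 and Glrb rose in the pituitary gland, Glra1 to 2.25 to 3.60 CPM at 12 weeks, against 0 to 0.347 CPM at 0 days, Glra3 in the hippocampus (0.65) and Gabrr2 in the neocortex (1.02), and Glra2 fell in the olfactory bulb (−0.42) and the neocortex (−0.30) and Glra1 in the hypothalamus (−0.48).

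Base composition, and in part exon length, moved with the fold changes. Across members, the Spearman correlation between the GC content of the longest transcript and the 12-week log2 fold change was −0.60 in the pituitary gland (38 genes), and over the 42 members of each brain organ 0.51 in the olfactory bulb, −0.21 in the hippocampus, −0.59 in the hypothalamus and 0.54 in the neocortex. Over all genes tested it was −0.42, 0.46, −0.07, −0.15 and 0.27 in the same order. With exon length in place of GC content it was 0.55, −0.35, 0.51, 0.01 and −0.32 across members. Over all genes the correlation with length was 0.19, −0.23, 0.34, −0.04 and 0.01. These are descriptions across genes of the same libraries. With GC content and length entered as offsets, 17 of 23 calls remained in the pituitary gland, 15 of 22 in the olfactory bulb, 7 of 11 in the hippocampus, 0 of 2 in the hypothalamus and 4 of 14 in the neocortex, among them Gabbr1, Gabrg3 and Grin2b. The calls lost in the neocortex included Grin1, Grik2, Gria2, Gria3, Grin2a, Grin3a, Gabrg1 and Grid2ip, those in the hippocampus Gabrb1, Gria2 and Grik2, and those in the olfactory bulb Grik2, Gria4, Gabra5, Grm7, Grin2c and Grin2d. Of all genes, 44.9%, 19.4%, 19.0%, 6.62% and 23.1% were called under the offsets in those organs. Within the pituitary gland Gabrb2 (2.37 ± 0.20), Gabrb1 (0.53 ± 0.08), Grin3a (0.84 ± 0.11), Gabbr1 (−0.94 ± 0.11), Gabre (−1.11 ± 0.19) and Gabrq (−2.38 ± 0.25) kept their calls under these offsets. Gria2, at 0.02 ± 0.07, Grin2a and Gabra2 lost their calls, and Grik2 turned from a call upward to one downward (−0.18 ± 0.06, adjusted p = 0.0109). Members higher and lower there were then 12 and 7, in place of 17 and 6. In the olfactory bulb Gria2 kept its call at −0.05 ± 0.02.

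**Figure D5:**
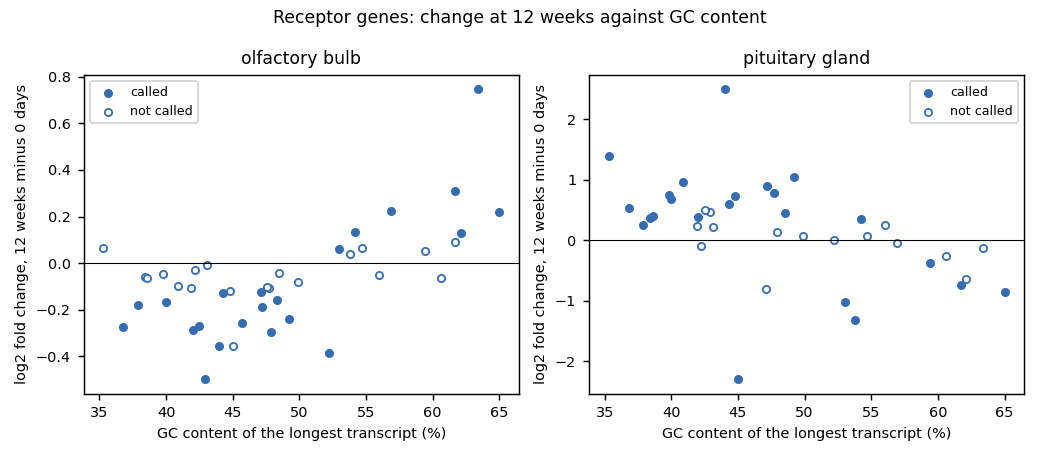
GC content of the longest transcript (horizontal, percent) against the log2 fold change at 12 weeks (vertical) for each member tested, in the olfactory bulb (left) and the pituitary gland (right). The cloud rises with GC content in the olfactory bulb (Spearman 0.51) and falls in the pituitary gland (Spearman −0.60).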

How the data were processed

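Gene counts were deposited by the authors as whole-number, unnormalized read counts of 20646 symbols, per the file headers. Per the labels' protocols the libraries were strand-specific poly(A) libraries. The submitters' processing notes name HISAT2 2.1.0, featureCounts 1.6.3, SAMtools 1.9, Trimmomatic 0.38, FastQC 0.11.7 and the build GRCm38 (mm10). Which annotation was counted, and whether counting used strand, was not given in the sources used here. From the deposited counts, 419 libraries of 5 organs were analysed, with 10532464 to 20875631 counts each, and 684 columns of other organs were not used. The olfactory bulb library of 4 weeks, replicate 6, was left out.

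In each organ edgeR 4.0.16 (R 4.3.3, limma 3.58.1) was run on all its libraries: filterByExpr, TMM, 1 coefficient per time point, quasi-likelihood tests against 0 days, and Benjamini-Hochberg adjustment over all genes tested, with 0.05 as the threshold. An F-test covered all 13 later time points. A trend on log2(days + 1) was tested on the summed counts of the 14 time points. Organs were compared at 0 days, and their 12-week changes by interaction terms, in joint fits with the neocortex. Levels are TMM-scaled CPM computed from the counts, and per-kilobase levels use exon lengths of GENCODE M21. Alternatives were RLE factors, no count filter, DESeq2 1.42.0, a replicate block, leaving out libraries, and offsets for GC content and length. The scripts were tested on simulated data. Promoter sequences came from RefSeq (GRCm38.p6).

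Where nothing in the labels says that replicates of a group were kept or dissected apart, p-values measure only the spread between these samples. The members and lists were chosen with earlier results of these data known, so they are not independent support. Members named are those with the smallest p in each organ and test (up to 8 at 12 weeks, 6 in the F-test, 4 in the trend), the 8 called most often, the 4 highest and 4 lowest between organs at 0 days, the highest per kilobase in each family, and the 3 smallest p of each interaction. Other genes and times that the text gives, such as the comparisons with 3 days, were chosen after their values were seen. A few genes that these rules select are not reported here by name, but are included in the counts.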

Additional observations from a re-analysis of the deposited data

Results flagged for a closer look

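In 68 groups of 5 or 6 mice, the highest or lowest value was compared with its neighbour, a comparison that flags about 1 in 20 groups by chance. It flagged 2, both in the olfactory bulb: Grin2b in the 12-week replicate 2, at 451 CPM against 381 to 395 CPM in the other 5 mice, and Gabrb2 in the 0-day replicate 5, at 129 CPM against 108 to 116 CPM in the others.

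Several 12-week changes differed from that in the neocortex in a direct test of the difference (edgeR interaction, log2 scale). In the pituitary gland these were Gabrb2 (2.58), Grin3a (1.19) and Gabrb1 (0.94). In the olfactory bulb they were Gabbr1 (0.15) and Gria2 (-0.18). In the hippocampus they were Grik2 (0.38), Grin2a (0.39) and Gabrb2 (0.52), and in the hypothalamus Grin1 (-0.18) and Gabrg1 (0.42).

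The olfactory bulb library of 4 weeks, replicate 6, which no comparison used, had 36 members outside the range of the other 83 olfactory bulb libraries, 16 above and 20 below. Its median correlation with them was 0.854, Eomes was at 0 CPM against 120 to 162 CPM in the others, and Mbp was at 5328 CPM against 1033 to 1697 CPM.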

How the results depend on the processing

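RLE factors, no count filter, DESeq2 and the replicate block moved no count of called members by more than 1.5 times. When the library that correlated worst with its group was dropped at each time point, the count became 4 in place of 2 at 12 weeks in the hypothalamus, 39 in place of 24 over its 13 comparisons, 37 in place of 21 over those of the hippocampus, and 9 in place of 14 at 12 weeks in the neocortex. With GC content and length offsets it became 0 in place of 2 in the hypothalamus and 7 in place of 14 in the neocortex at 12 weeks, and over 13 comparisons 33 in place of 21 in the hippocampus, 48 in place of 73 in the neocortex and 93 in place of 198 in the olfactory bulb. Of the hypothalamic calls at 12 weeks 1 remained when only libraries of 12 weeks and 0 days were used. Keeping the left-out olfactory bulb library gave 12 in place of 22 calls at 12 weeks and 111 in place of 198 over 13 comparisons. A slope on weeks gave 7 in place of 4 trend calls in the hippocampus, 13 in place of 21 in the olfactory bulb and 11 in place of 20 in the pituitary gland, and without 0 days 2 remained in number in the hippocampus. In the pituitary gland, 12 weeks against 3 days gave 8 in place of 23 calls, and the trend without 0 and 1 days 6 in place of 20; both were chosen after seeing the data. Against 3 days the sign turned for Gabrb1 (-0.034), Grik5 (0.090) and Gabbr1 (0.11). The cause of these shifts was not tested.

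Leaving out 1 library of 12 weeks or 0 days at a time gave 22 to 23 calls in the pituitary gland, 19 to 25 in the olfactory bulb, 9 to 14 in the hippocampus, 0 to 4 in the hypothalamus and 10 to 16 in the neocortex, and 19 to 22 at 4 weeks in the olfactory bulb. Without the pituitary libraries of low Pomc 207 calls were made over 13 comparisons and without the library with myelin genes 226, against 217. For the members with the smallest p in each organ and test, 860 recomputed values kept direction and call, 31 lost the call and 3 turned; members named beyond these were not counted, and of them pituitary Grik2 turned to -0.18 with the offsets. Whether organs with the same number come from 1 mouse is not given in the labels. The replicate numbers were not taken as pairs: between each organ and the neocortex at 0 days same-numbered libraries correlated by -0.012 to 0.13, and 11 of 24 correlated best with their own number, 4 of 6 in the hypothalamus and in the pituitary gland; with the number as a block the organ differences at 0 days were 41, 40, 33 and 33 calls and the interactions 22, 10, 14 and 5 in the pituitary gland, olfactory bulb, hippocampus and hypothalamus. Between time points same-numbered libraries correlated by -0.07 to 0.52 in 30 pairs of 12 weeks and 0 days, and 11 of 30 correlated best with their own number. With the number as a replicate block 23, 22, 12, 2 and 14 members were called at 12 weeks in the pituitary gland, olfactory bulb, hippocampus, hypothalamus and neocortex. Depth limits the members under about 1 CPM in the pituitary gland, where Grin2b, Grm3 and Grm4, among others, could not be tested.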
